A study of Mus musculus with 3 samples.

Results

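The 35 core genes of the cell cycle engine were described in F121-9 cells, a mouse embryonic stem (ES) cell line derived from a cross of Cast and 129 mice. They were 8 cyclins, 4 cyclin-dependent kinases (CDKs), 6 CDK inhibitors, 3 retinoblastoma (RB) family genes, 8 E2F transcription factors, 3 CDC25 phosphatases, and Wee1, Fbxo5 and Mki67. The members were named by symbol, and all 35 were found among the 55536 genes of the deposited gene tables. All 3 libraries of total RNA were labelled as biological replicates of F121-9 cells at passage 14, each made from 400 ng of RNA. They form 1 group of 1 line from 1 donor, so no group contrast exists. The spread between them may be technical, and p-values between libraries measure that spread or counting error alone. The 2 parental genomes were not told apart in the files used.

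In the cell cycle, cyclins accumulate and decay in turn and switch on the CDKs. D-type cyclins with CDK4 or CDK6, and E-type cyclins with CDK2, phosphorylate RB family proteins, which then release E2F factors to transcribe genes for DNA synthesis. Cyclin A with CDK2 or CDK1 and cyclin B with CDK1 carry the cell through S phase and into mitosis. INK4 proteins restrain CDK4 and CDK6, whereas CIP/KIP proteins bind the CDK2 complexes as well. Mouse ES cells are known for a short G1 phase and for CDK activity that persists through much of the cycle.

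The libraries of replicates 1, 2 and 3 held 10610782, 9765384 and 10175403 estimated counts, of which 10425608, 9575697 and 9974967 lay in genes. Where no read was counted, the limit is 3 counts, which corresponds to 0.288, 0.313 and 0.301 CPM (counts scaled to the gene total of the library) and covers counting error only. Levels are TPM (transcript abundance scaled for transcript length and library) from gene tables in the layout of RSEM, as mean ± SD over n = 3 libraries. Transcript tables in the layout of kallisto gave a further TPM from the same reads. All 8 ES cell markers examined were expressed, against 1 of 9 fibroblast (feeder) markers and 3 of 11 germ layer and trophoblast markers. The feeder markers summed to 3.37 to 4.40 TPM per library, and Col3a1, Lum, Dcn and Acta2 had 0 counts in every library in the RSEM-style tables. The kallisto-style tables listed Lum at 2, 0 and 1 counts, Dcn at 0, 1 and 0, Acta2 at 0, 1 and 3, and Col3a1 again at 0. The germ layer and trophoblast markers summed to 16.9 to 22.0 TPM, with Hand1 and Elf5 at 0 counts in the RSEM-style tables. The kallisto-style tables listed Elf5 at 36.3, 32.8 and 30.7 counts (0.694 ± 0.0790 TPM) and Hand1 again at 0.

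Of the 35 genes, 32 reached a TPM of 1 in every library, the rule used here for an expressed gene. That rule took 23.6% of all genes and 52.1% of protein-coding genes. Mean levels of at least 100 TPM were reached by 9 members, 17 lay between 10 and 100 TPM, 6 between 1 and 10 TPM, and 3 below 1 TPM. The 3 not called expressed were the inhibitor genes Cdkn1b and Cdkn2a and the cyclin gene Ccnd2. The median member stood at 27.2 TPM and the median of all expressed genes at 17.4 TPM, a level that 22 members exceeded. Together the members took 3435 ± 84.4 TPM, or 0.343% of the total. In bulk RNA, fewer cells in a given cell cycle phase and less RNA per cell cannot be told apart. The labels do not say how the cells were distributed over the cycle.

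**Figure D1:**
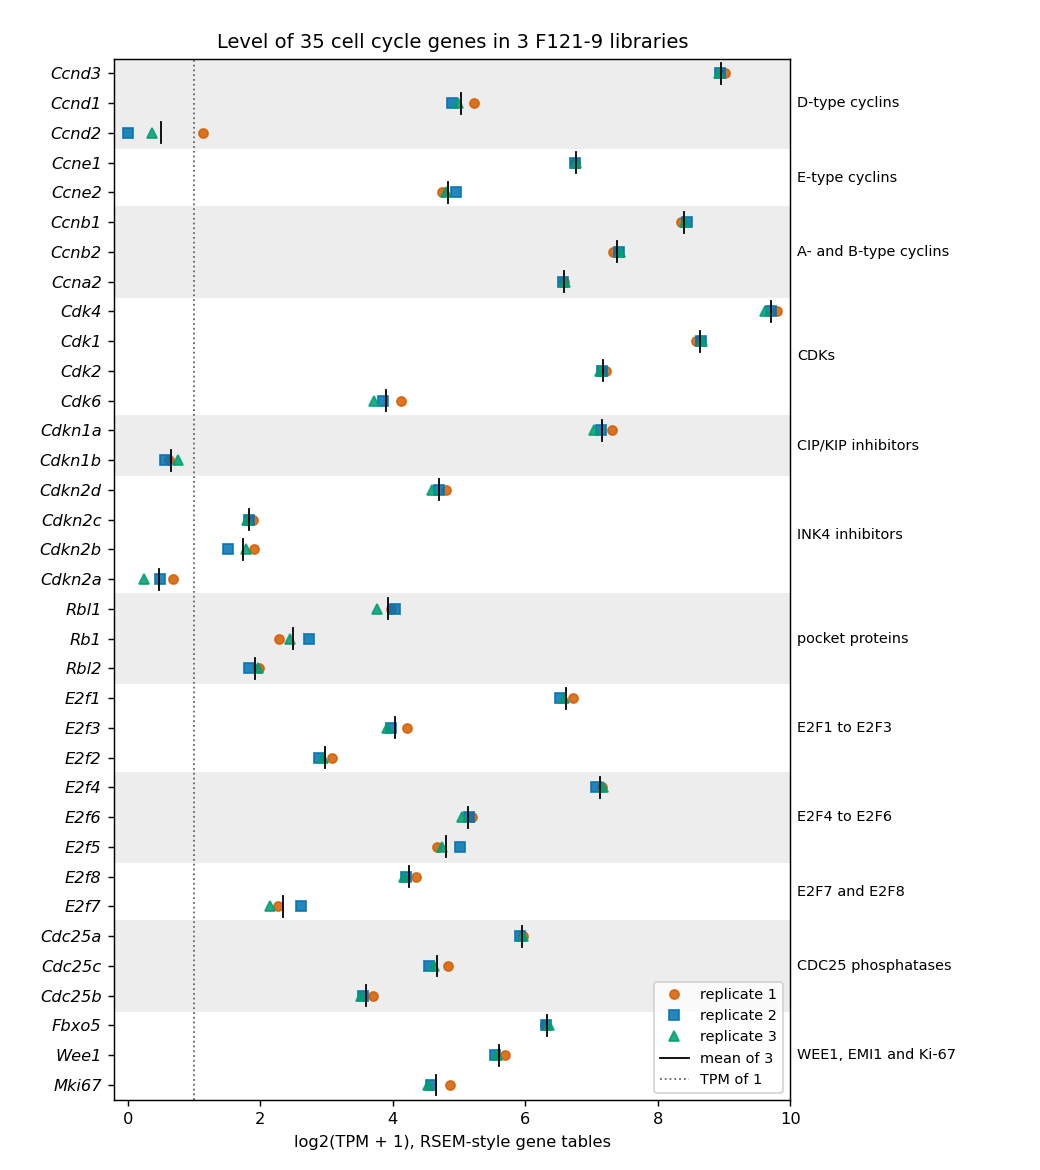
Level of each of the 35 genes as log2(TPM + 1) in the RSEM-style gene tables, grouped by role. Each point is 1 library (replicates 1 to 3), the bar is the mean of the 3 and the dotted line marks a TPM of 1. Cdk4 and Ccnd3 stand furthest right, and Ccnd2, Cdkn1b and Cdkn2a lie near or below the line.

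Among the D-type cyclins, which couple growth signals to CDK4 and CDK6, nearly all RNA came from Ccnd3. Ccnd3 (ENSMUSG00000034165.16, chromosome 17, 47505051 to 47599691) stood at 515, 489 and 486 TPM in replicates 1, 2 and 3. Ccnd1 (ENSMUSG00000070348.5, chromosome 7, 144929931 to 144939925) had 36.6, 28.7 and 30.7 TPM, with replicate 1 the highest. The level of Ccnd3 was 15.7 ± 1.5 times that of Ccnd1, and the libraries did not overlap. Ccnd2 had 1.21, 0 and 0.29 TPM on 8, 0 and 6 counts. In the RSEM-style tables it was thus not detected in replicate 2 and lay near the limit of detection in the others. Ccnd3 thus took 93.9 ± 0.661% of the D-type cyclin TPM, Ccnd1 6.03 ± 0.548% and Ccnd2 0.0917 ± 0.114%. In the kallisto-style tables the share of Ccnd3 was 93.3 ± 0.586%.

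The D-type cyclins are close relatives that carry the LxCxE motif, by which they bind RB proteins, near the start of the protein. The first 48 coding bases of their transcripts Ccnd1-201, Ccnd2-201 and Ccnd3-205 (GENCODE M21, GRCm38) are shown for comparison, with the 5 codons of that motif in capitals.
Ccnd1 (chr7:144939646-144939693, minus strand): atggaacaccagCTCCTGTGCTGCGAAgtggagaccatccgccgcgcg
Ccnd2 (chr6:127150726-127150773, minus strand): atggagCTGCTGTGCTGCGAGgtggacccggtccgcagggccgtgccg
Ccnd3 (chr17:47593655-47593702, plus strand): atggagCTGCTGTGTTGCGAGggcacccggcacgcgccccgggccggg
Within the 15 capital bases, Ccnd1 and Ccnd2 shared 13, Ccnd1 and Ccnd3 shared 12, and Ccnd2 and Ccnd3 shared 14. Ccnd2 and Ccnd3 were therefore the pair most alike in these bases, although the codons spell the same 5 amino acids in each gene.

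The E-type cyclins activate CDK2 at entry into S phase. Ccne1 (ENSMUSG00000002068.16, chromosome 7, 38097984 to 38107534) stood at 107, 106 and 108 TPM, among the members with the least spread between libraries. Ccne2 had 25.8, 29.9 and 27.0 TPM, below Ccne1 in every library. Ccne1 took 79.6 ± 1.34% of the E-type TPM, and its ratio to Ccne2 was 3.91 ± 0.312 (3.32 ± 0.232 in the kallisto-style tables).

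The cyclins of S phase and mitosis were ordered Ccnb1, Ccnb2, Ccna2, with no overlap between libraries. Ccnb1, the main cyclin B gene (ENSMUSG00000041431.16, chromosome 13, 100778650 to 100786570), had 325, 348 and 338 TPM. Ccnb2, a second cyclin B, had 159, 170 and 171 TPM, lowest in replicate 1 like Ccnb1. Ccna2, the cyclin A of dividing somatic and ES cells, had 94.8, 93.8 and 95.6 TPM and differed little between libraries. The ratio of Ccnb1 to Ccnb2 was 2.02 ± 0.0416. The processed pseudogene Ccnb1-ps was listed at 38.1, 40.3 and 43.8 TPM. It is a near copy of Ccnb1, so the split of reads between the pair is uncertain.

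Cdk4 was the highest of all members, but its gene TPM depended on short transcripts. Cdk4 (ENSMUSG00000006728.12, chromosome 10, 127063534 to 127067920), the partner of the D-type cyclins, stood at 891, 835 and 780.0 TPM, highest in replicate 1. Its other D-cyclin kinase relative Cdk6 had 16.4, 13.4 and 12.1 TPM, and Cdk4 was 60.3 ± 5.21 times as high. Cdk1 (ENSMUSG00000019942.13, chromosome 10, 69335146 to 69352938), the kinase of mitotic entry, had 380, 401 and 406 TPM, lowest in replicate 1. Cdk2 (ENSMUSG00000025358.16, chromosome 10, 128697939 to 128705031), the partner of cyclins E and A, had 148, 142 and 139 TPM, between Cdk1 and Cdk6 in every library. Cdk4 took 60.1 ± 1.86% of the TPM of these 4 kinases, Cdk1 28.6 ± 1.93%, Cdk2 10.3 ± 0.0941% and Cdk6 1.00 ± 0.121%.

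Of the CIP/KIP inhibitors, Cdkn1a carried almost all of the RNA. Cdkn1a (ENSMUSG00000023067.14, chromosome 17, 29090976 to 29100727) encodes CIP1, an inhibitor of cyclin-CDK complexes and a p53 target, and stood at 157, 140 and 130 TPM, highest in replicate 1. Cdkn1b, which encodes the related inhibitor KIP1 (ENSMUSG00000003031.14, chromosome 6, 134920401 to 134925513), had 0.54, 0.48 and 0.70 TPM on 10, 10 and 14 counts. The gap between them exceeded the spread of either by far, and Cdkn1a took 99.6 ± 0.112% of the pair's TPM. In the kallisto-style tables Cdkn1b was listed at 1.22, 1.39 and 1.57 TPM and would pass the rule for expression there.

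The INK4 inhibitors of CDK4 and CDK6 summed to 30.3 ± 2.30 TPM. Cdkn2d, the INK4D gene, had 26.8, 25.1 and 23.2 TPM and took 82.4 ± 1.30% of that sum. Cdkn2c, the INK4C gene, had 2.70, 2.55 and 2.48 TPM. Cdkn2b, the INK4B gene, had 2.76, 1.85 and 2.46 TPM, overlapping Cdkn2c. Cdkn2a, which encodes INK4A and the p53 activator ARF, rested on 3, 2 and 1 counts, at or below the limit that a count of 0 allows. In the RSEM-style tables it was thus not detectable above that limit at this depth. The kallisto-style tables listed Cdkn2a at 5, 7 and 7 counts (0.563 ± 0.101 TPM).

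The pocket proteins, RB and its relatives p107 and p130, restrain E2F factors, and their genes stood low, at 21.7 ± 1.84 TPM together. Rbl1, the p107 gene, had 14.7, 15.4 and 12.6 TPM. Rb1 itself (ENSMUSG00000022105.6, chromosome 14, 73183673 to 73325822) had 3.89, 5.65 and 4.45 TPM, and Rbl2, the p130 gene, had 2.95, 2.55 and 2.91 TPM. The order Rbl1, Rb1, Rbl2 held in each library without overlap. Rbl1 took 65.5 ± 2.56% of the family TPM, and 61.6 ± 1.49% in the kallisto-style tables.

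The 8 E2F genes spanned a wide range and summed to 342 ± 10.8 TPM. E2f4, which acts mainly as a repressor with pocket proteins, was highest at 142, 133 and 143 TPM (ENSMUSG00000014859.9, chromosome 8, 105297663 to 105305370). E2f1, an activator of S phase genes, followed at 104, 91.0 and 95.1 TPM (ENSMUSG00000027490.17, chromosome 2, 154559407 to 154569892). The ratio of E2f4 to E2f1 was 1.45 ± 0.0744. The other activators were lower, E2f3 at 15.5 ± 1.91 TPM and E2f2 at 6.87 ± 0.579 TPM. E2f6, a repressor that does not bind pocket proteins, stood at 34.1 ± 1.97 TPM and E2f5, a pocket protein partner like E2f4, at 27.2 ± 3.63 TPM, with no overlap between libraries. Over protein-coding transcripts alone that order turned round, with E2f6 at 18.6 ± 0.753 TPM and E2f5 at 27.2 ± 3.64 TPM. The atypical repressors E2f8 and E2f7, which act without a DP partner, stood at 17.9 ± 1.25 and 4.13 ± 0.904 TPM. E2F1 to E2F3 summed to 119 ± 8.95 TPM, E2F4 to E2F6 to 201 ± 1.39 TPM, and E2F7 with E2F8 to 22.1 ± 1.40 TPM.

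The CDC25 phosphatases remove inhibitory phosphates from CDKs, and WEE1 adds them. Cdc25a had 61.5, 59.3 and 61.8 TPM and took 63.2 ± 2.06% of the CDC25 TPM. Cdc25c had 27.5, 22.3 and 23.5 TPM, and Cdc25b had 12.1, 10.8 and 10.4 TPM, so the 3 genes did not overlap. Wee1 stood at 50.5, 45.9 and 46.8 TPM, below Cdc25a in every library. Fbxo5, which encodes EMI1, an inhibitor of the anaphase-promoting complex, had 77.9, 78.1 and 81.4 TPM. Mki67, the Ki-67 gene that marks cycling cells (ENSMUSG00000031004.8, chromosome 7, 135689784 to 135716361), had 28.2, 22.8 and 22.2 TPM, with replicate 1 above the others.

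In the order of all 35 genes by mean TPM, 17 of the 34 neighbouring pairs overlapped between libraries. The first 5 places, held by Cdk4, Ccnd3, Cdk1, Ccnb1 and Ccnb2, did not overlap with one another or with what followed. Cdk2, Cdkn1a and E2f4, in places 6 to 8, overlapped and have no order beyond their spread.

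Partner genes of the engine from 5 further lists were mostly expressed. All 5 genes of the CDK-activating kinase and CKS list were expressed, from Mnat1, an assembly factor of that kinase, at 27.6 ± 1.70 TPM to Cks2, a CDK-binding adaptor, at 420 ± 7.66 TPM. All 9 DP partner and DREAM or MMB genes were expressed, from Lin9, a core subunit, at 15.6 ± 0.924 TPM to Mybl2, the B-MYB transcription factor gene, at 269 ± 9.47 TPM. All 6 ubiquitin ligase adaptors and regulators were expressed, from Fbxw7, which targets cyclin E, at 9.5 ± 0.539 TPM to Cdc20, an activator of the anaphase-promoting complex, at 189 ± 3.39 TPM. Of 3 other inhibitors of CDKs, 2 were expressed, led by Pkmyt1, a kinase of CDK1, at 59.9 ± 2.25 TPM. The lowest of these was Cdkn1c, the KIP2 gene, at 1.77, 1.51 and 0.94 TPM. Of 5 other cyclins and CDKs, 4 were expressed, led by Ccng1 at 69.5 ± 1.21 TPM, and Ccnb3 had 0 counts in every library.

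No member was called as varying between the libraries beyond the trend for genes of its level. With 3 libraries the test can miss moderate variation. edgeR's quasi-likelihood fit called 0 of 32 members tested, against 5 of 13391 genes (0.0373%) in all, with a lowest adjusted p of 0.987 among members. Before adjustment edgeR gave a p under 0.05 to 2 of the 32, Mki67 and E2f5, against 4.56% of all genes. limma-voom called 0 members as well.

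Counting error is a stricter yardstick, since it leaves out all variation between cultures and library preparations. By a chi-square test against Poisson error, 8 of 32 members (25%) differed between libraries, against 12.4% of all genes tested. All 8 were among the 27 members of at least 20 CPM, of which they made up 29.6%, against 19.6% of all genes at that depth. Mki67 had 203, 173 and 166 CPM in replicates 1, 2 and 3 (adjusted p = 3.44e-08). Ccnb1 had 523, 586 and 572 CPM (adjusted p = 1.25e-07). Replicate 1 thus stood apart in both, higher for Mki67 and lower for Ccnb1. Cdkn1a had 190, 174 and 161 CPM (adjusted p = 0.000165), and Ccnd1 had 92.1, 76.3 and 80.9 CPM (adjusted p = 0.00491). Cdk4 had 571, 620 and 597 CPM (adjusted p = 0.000747). Cdk1 had 198, 221 and 217 CPM (adjusted p = 0.00942), and Ccnb2 had 154, 173 and 173 CPM (adjusted p = 0.00979). Cdkn1a and Ccnd1 were highest in replicate 1, and the kinase genes Cdk4 and Cdk1 and the cyclin gene Ccnb2 were lowest there. E2f5 had 28.0, 37.8 and 31.0 CPM (adjusted p = 0.00609), with replicate 2 above the others. The exons of E2f5 overlap those of 1810022K09Rik on the opposite strand, a gene at 795 ± 11.1 TPM, and the sources used here do not say whether counting used strand. In the 5 further lists the same test called Cks1b, a CDK-binding adaptor (129, 147 and 148 CPM), and Rbbp4, a histone-binding DREAM subunit (96.5, 147 and 131 CPM), both lowest in replicate 1. It also called 7 of the 8 ES cell markers, of which 5 were highest in replicate 1 (Pou5f1, Sox2, Esrrb, Klf4 and Tfcp2l1) and 2 lowest there (Nanog and Dppa5a). Pou5f1, the OCT4 gene, had 515, 383 and 390 CPM.

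Without replicate 1 the test called 0 members and 27 genes in all, so each of these calls rested on that library being included. Without replicate 2 it called 6 members and without replicate 3 it called 7. Replicate 1 also differed by transcript length. Over the 27 members of at least 20 CPM, the log2 CPM of replicate 1 over the mean of replicates 2 and 3 followed mean transcript length with Spearman's rho of 0.507, and over 7584 genes of at least 20 CPM rho was 0.454. These correlations run across genes of the same libraries, which are not independent, and are given as a description. Mean transcript length weights each transcript by its TPM. For Cdk1 it was lowered by short transcripts, while 69.7 ± 1.39% of its counts lay in the 1253 nt Cdk1-202. Mki67, at 10061 nt the longest of the 8, had a log2 ratio of 0.26, and Cdk1, at 914 nt the shortest, one of -0.15. Other called members did not follow that order: Ccnb1 (2410 nt) had -0.15, Cdkn1a (1837 nt) 0.18 and E2f5 (1778 nt) -0.30. The part of length in the 8 calls was not tested. Replicate 1 was the highest library in 12 of the 32 members (37.8% of all genes) and the lowest in 13 (38.6% of all genes).

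**Figure D2:**
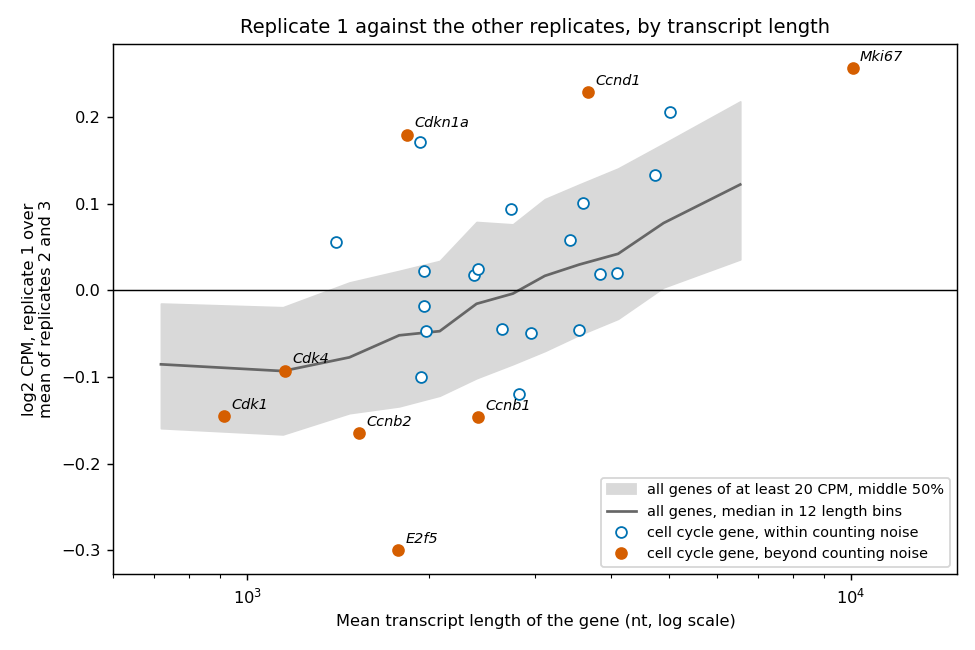
The log2 ratio of CPM in replicate 1 to the mean CPM of replicates 2 and 3, against the mean transcript length of the gene (nt, log scale), for the 27 members of at least 20 CPM. Filled points are the 8 members beyond counting noise, open points the other members, and the grey line and band give the median and the middle 50% of all 7584 genes of at least 20 CPM in 12 length bins. Long Mki67 and Ccnd1 lie above 0, and short Cdk1, Cdk4 and Ccnb2 lie below it. Cdk1 and Cdk4 lie within the grey band for their length, and Ccnd1, Ccnb2, Cdkn1a, E2f5 and Ccnb1 lie outside it. Mki67 is longer than the grey line reaches.

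The level of Cdk4 was high in replicate 1 by TPM but low there by CPM, and its transcripts differed in the same way. Cdk4-209, a 468 nt transcript annotated as a retained intron, had 338, 301 and 247 TPM. Cdk4-201, the 2053 nt protein-coding transcript, had 245, 288 and 287 TPM. The short transcript was therefore highest, and the long one lowest, in replicate 1. By mean TPM Cdk4-209 held 35.2 ± 3.19% of the gene and Cdk4-201 32.9 ± 4.86% in the RSEM-style tables, so they overlapped, and Cdk4-201 was the higher of them in replicate 3. Without replicate 1 the RSEM-style lead passed to Cdk4-201, at 288 TPM against 274 TPM for Cdk4-209. In the kallisto-style tables Cdk4-209 led in every library, with 39.8 ± 1.99% against 21.1 ± 1.29%. By counts Cdk4-201 led the gene. Transcripts annotated as protein-coding held 45.7 ± 4.92% of the TPM of Cdk4 but 74.2 ± 4.63% of its counts.

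Cdk1 showed the same contrast between TPM and counts. Its protein-coding transcripts held 49.4 ± 1.39% of the TPM and 81.6 ± 0.665% of the counts. The 475 nt retained-intron transcript Cdk1-204 stood at 161 ± 10.16 TPM beside Cdk1-202, the leading protein-coding one, at 187 ± 3.57 TPM. Over protein-coding transcripts alone, the order was Ccnd3 at 494 ± 15.4 TPM, Cdk4 at 380 ± 23.7, Ccnb1 at 324 ± 10.9 and Cdk1 at 195 ± 3.40 TPM. That scale, added after the data were seen, moved 15 of the 35 members to another place.

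Protein-coding transcripts held less than 90% of the TPM in 8 expressed members, against 32.5% of expressed protein-coding genes. Beside Cdk4 and Cdk1 these were E2f6 (54.6 ± 1.11%), Rbl1 (58.1 ± 1.66%), Rb1 (77.4 ± 6.19%), Cdc25b (83.5 ± 7.27%), Cdc25c (83.8 ± 5.23%) and E2f7 (88.7 ± 15.7%). In E2f6 the rest was mainly E2f6-204, annotated for nonsense-mediated decay, at 40.6 ± 2.90%, and in Rbl1 it was mainly the retained-intron transcript Rbl1-202, at 38.6 ± 4.58%. Cdk6, all of whose TPM lay in protein-coding transcripts, was led by TPM by Cdk6-205, a 425 nt transcript, at 51.8 ± 11.1%. By counts Cdk6 was led by the 11525 nt Cdk6-202, at 88.2 ± 2.98%.

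**Figure D3:**
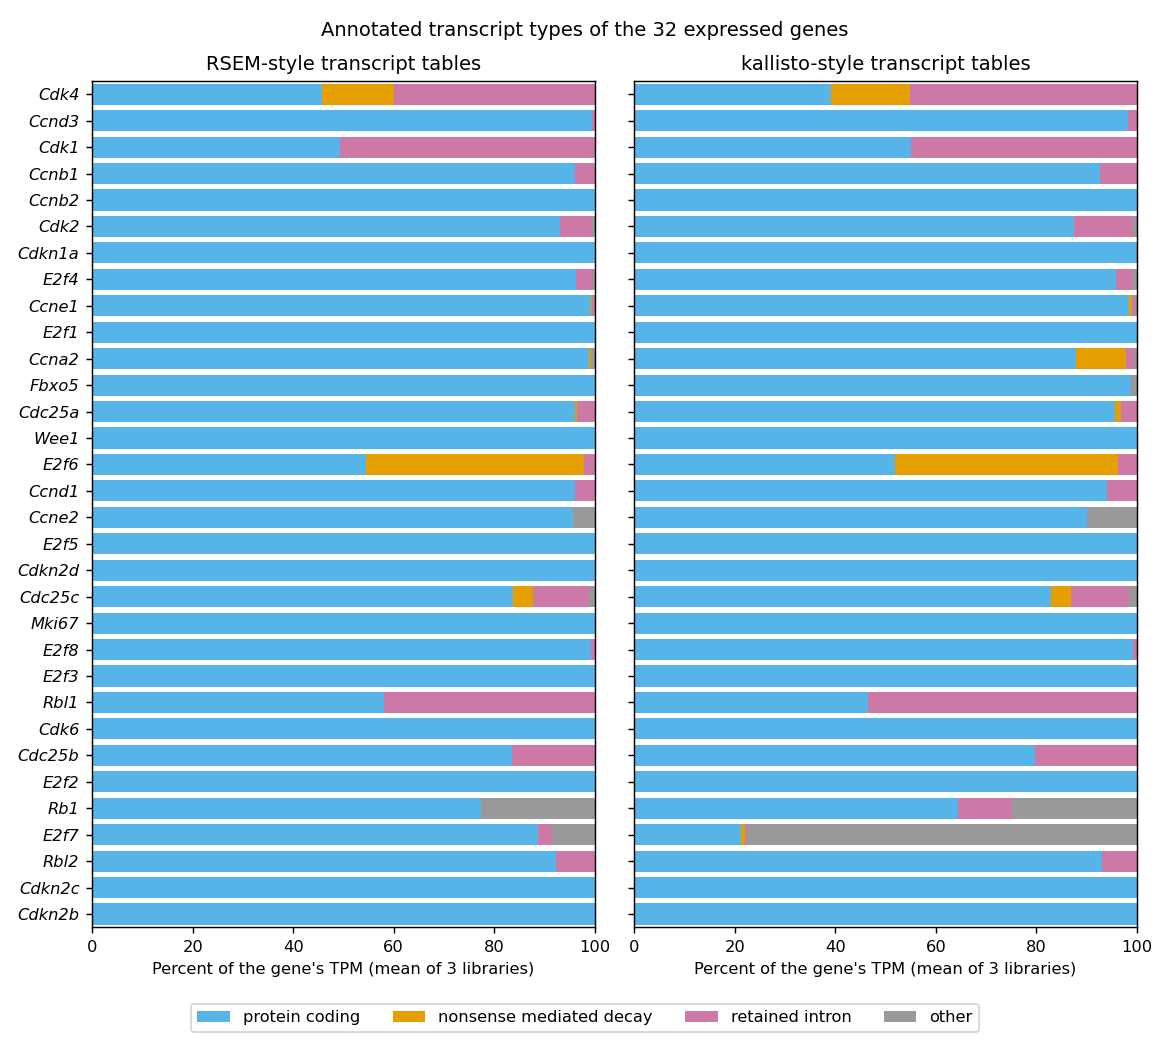
Percent of each expressed gene's TPM (mean of 3 libraries) by annotated transcript type, in the RSEM-style tables on the left and the kallisto-style tables on the right, genes ordered by level. Most bars are protein-coding throughout. Cdk4, Cdk1, E2f6 and Rbl1 hold large shares of other types in both tables, and E2f7 differs between the tables.

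The RSEM-style tables gave higher TPM than the kallisto-style ones in 30 of the 35 members, as in 86.2% of all expressed genes. The difference in log2(TPM + 1) had a median of 0.29 over expressed members and 0.28 over all expressed genes. Ccnd3 stood at 497 ± 15.8 TPM in the RSEM-style and 370 ± 27.7 TPM in the kallisto-style tables, and Cdk1 at 396 ± 13.4 TPM in the RSEM-style and 268 ± 2.93 TPM in the kallisto-style tables. Cdk4, at 835 ± 55.5 TPM in the RSEM-style and 787 ± 43.1 TPM in the kallisto-style tables, differed least among the 5 highest members. The 5 members lower in the RSEM-style tables were E2f7, Rbl2, Cdkn1b, Ccnd2 and Cdkn2a.

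The 3 members not called expressed had the lowest ratios of RSEM-style to kallisto-style counts. The rule for expression used the RSEM-style TPM, so genes that those tables set low were favoured for this group. The low ratios are thus partly set by that choice. The RSEM-style count was 0.604 of the kallisto-style count in the median expressed member and 0.595 in the median expressed gene. Cdkn1b had 10, 10 and 14 counts in the RSEM-style tables, against 43, 53 and 63 in the kallisto-style ones, a ratio of 0.214 over the 3 libraries. Ccnd2 had 8, 0 and 6 counts in the RSEM-style tables, against 37, 30 and 36 in the kallisto-style ones, a ratio of 0.136. Cdkn2a had a ratio of 0.316. By TPM the tables differed for Cdkn1b, at 0.573 ± 0.114 TPM in the RSEM-style and 1.39 ± 0.176 TPM in the kallisto-style tables. Ccnd2, at 0.5 ± 0.632 TPM in the RSEM-style and 0.554 ± 0.371 TPM in the kallisto-style tables, differed by less than the spread between libraries. Which table is nearer to the true level was not tested.

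**Figure D4:**
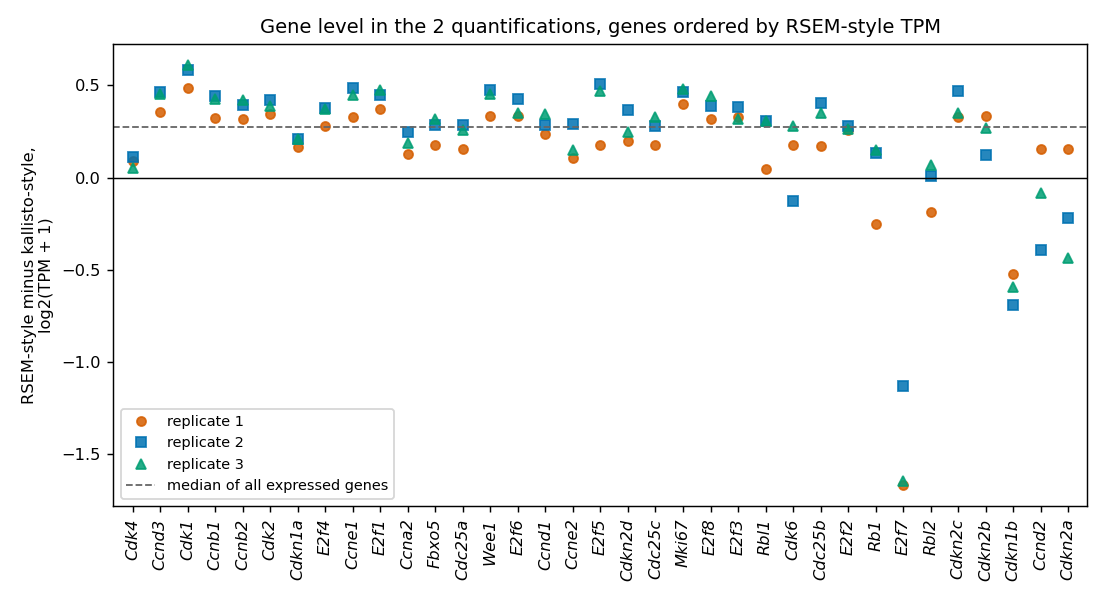
Difference in log2(TPM + 1), RSEM-style minus kallisto-style, for each of the 35 genes in each library (points), ordered by RSEM-style TPM. The dashed line is the median of all expressed genes at 0.28. Most members lie near that line, and E2f7 and Cdkn1b lie below 0 in all 3 libraries.

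At the level of transcripts, limma compared the tables within each library. Of 180 member transcripts, 77 reached a TPM of 1 in every library in either table, and 9 of these (11.7%) differed by at least 1 in log2(TPM + 1) at an adjusted p under 0.05, against 18.9% of 28903 transcripts. Of the 9, 3 were higher in the RSEM-style tables, a direction called for 6.78% of all transcripts, and 6 were lower there, as were 12.1% of all transcripts. The 9 calls came from 3 of 53 protein-coding transcripts and 6 of 24 of other types. The shares by type over all transcripts are not given here, so no contrast between types is drawn for the members. Some of the calls, such as E2f7-202, passed the filter only through the tables where they were higher. Their differences are therefore partly set by that filter, which applied to all transcripts alike. E2f7-202, an 811 nt noncoding transcript, stood at 0.0133 ± 0.0231 TPM in the RSEM-style and 9.52 ± 1.04 TPM in the kallisto-style tables, a log2 difference of -3.37 (adjusted p = 0.000427). The gene total of E2f7 was 4.13 ± 0.904 TPM in the RSEM-style and 13.2 ± 0.986 TPM in the kallisto-style tables. E2f8 was accordingly 4.47 ± 0.958 times E2f7 by the RSEM-style tables and 1.02 ± 0.0571 times by the kallisto-style ones.

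The other calls lay in 6 genes. Ccna2-203, annotated for nonsense-mediated decay, stood at 0.31 ± 0.537 TPM in the RSEM-style and 8.08 ± 2.28 TPM in the kallisto-style tables (adjusted p = 0.00356). Cdk1-203, a 378 nt retained-intron transcript, ran the other way, at 36.6 ± 2.29 TPM in the RSEM-style and 6.28 ± 5.27 TPM in the kallisto-style tables (adjusted p = 0.0150). Ccnb1-202 (log2 difference 1.35, adjusted p = 0.0147) and Ccnd3-201 (2.01, adjusted p = 0.0163) were also higher in the RSEM-style tables. Lower there were Ccnd3-216 (-1.85, adjusted p = 0.00119), Ccnb1-206 (-1.08, adjusted p = 0.00481), Cdk2-204 (-1.10, adjusted p = 0.0101) and Cdkn2d-201 (-1.23, adjusted p = 0.0416). The leading transcript was nevertheless the same in both tables for 28 of 29 expressed members with several transcripts, against 87.7% of such genes. The exception was E2f7, led by E2f7-201 (80.5 ± 17.1%) in the RSEM-style and by E2f7-202 (71.8 ± 2.46%) in the kallisto-style tables.

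The exons of 16 members overlapped a gene on the opposite strand, and none overlapped one on the same strand. The share of all genes with such an overlap is not given here. The neighbours with the most RNA beside 1810022K09Rik were Exosc9 next to Ccna2 (72.9 ± 5.48 TPM), Tspan31 next to Cdk4 (71.0 ± 2.23 TPM), Ints8 next to Ccne2 (62.2 ± 1.95 TPM), Aktip next to Rbl2 (62.1 ± 1.11 TPM) and Bysl next to Ccnd3 (54.0 ± 2.15 TPM). Without the strand setting, reads of these pairs cannot be told apart with certainty. Rbl2 itself stood at 2.80 ± 0.220 TPM.

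Many cell cycle genes are known targets of E2F factors, or of complexes that bind CHR and CCAAT elements, so their promoters were searched for these letters. RefSeq promoters (GRCm38.p6) were at hand for 26 of the 35 genes; Ccna2, Ccnd1, Ccnd2, Ccne2, Rb1, E2f4, E2f5, Cdc25c and Wee1 were not matched. The 250 bases before each RefSeq start were searched on both strands. Some genes had several such starts, and some starts lay inside the annotated gene. The E2F letters (TTTCCCGC, TTTCGCGC, TTTGCCGC or TTTGGCGC) were found in 7 of 26 members (26.9%), against 2.16% of 27025 genes. The 7 were Cdk1, Cdk2, Cdkn2a, Rbl1, E2f3, E2f7 and Cdc25a, which run from Cdk1 at 396 ± 13.4 TPM to Cdkn2a at 0.4 ± 0.21 TPM. The CHR letters (TTTGAA) were found in 8 members (30.8%), against 18.3% of genes, and CCAAT in 15 (57.7%), against 37.5% of genes. The CHR match of E2f2 and the CCAAT match of Ccnd3 lay in windows wholly inside the annotated gene. A match is a description of the letters only, and the members were chosen as cell cycle genes. Members with none of these letters included Cdk4, the highest member, and Ccne1. E2f1 and the low Cdkn2c had none either, but their windows lay wholly inside the annotated gene. The bases before these 2 genes were thus not searched. Whether the letters go with the level was not tested. The promoters of Cdk1, Cdc25a, E2f3 and Mki67 and of the hardly detected Cdkn1b are shown with matches in capitals, up to the annotated gene. For Cdk1 this leaves out the last bases searched, which held a further TTTGAA beginning 15 bases before the RefSeq start.
Cdk1 (chr10:69352939-69353162, minus strand): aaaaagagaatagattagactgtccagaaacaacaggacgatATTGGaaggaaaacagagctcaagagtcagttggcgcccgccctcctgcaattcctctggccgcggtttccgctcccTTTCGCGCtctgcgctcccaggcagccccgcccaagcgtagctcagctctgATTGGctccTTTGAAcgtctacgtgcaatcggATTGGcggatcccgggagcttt
Cdc25a (chr9:109875329-109875578, plus strand): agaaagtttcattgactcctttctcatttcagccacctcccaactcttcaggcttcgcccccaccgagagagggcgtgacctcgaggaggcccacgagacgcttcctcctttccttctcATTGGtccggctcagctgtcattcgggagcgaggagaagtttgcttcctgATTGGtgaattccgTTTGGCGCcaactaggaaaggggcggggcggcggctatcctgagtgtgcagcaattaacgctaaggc
E2f3 (chr13:29986064-29986313, minus strand): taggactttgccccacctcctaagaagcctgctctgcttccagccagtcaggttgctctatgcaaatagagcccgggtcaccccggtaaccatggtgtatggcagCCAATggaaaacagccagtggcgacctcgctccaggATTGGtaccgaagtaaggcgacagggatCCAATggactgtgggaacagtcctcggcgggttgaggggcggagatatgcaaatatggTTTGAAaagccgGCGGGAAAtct
Mki67 (chr7:135716380-135716629, minus strand): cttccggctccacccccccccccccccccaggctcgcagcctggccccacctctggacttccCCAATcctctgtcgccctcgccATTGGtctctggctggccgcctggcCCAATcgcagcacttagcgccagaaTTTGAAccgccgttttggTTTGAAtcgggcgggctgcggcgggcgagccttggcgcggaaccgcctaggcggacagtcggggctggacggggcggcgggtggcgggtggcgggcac
Cdkn1b (chr6:134920151-134920400, plus strand): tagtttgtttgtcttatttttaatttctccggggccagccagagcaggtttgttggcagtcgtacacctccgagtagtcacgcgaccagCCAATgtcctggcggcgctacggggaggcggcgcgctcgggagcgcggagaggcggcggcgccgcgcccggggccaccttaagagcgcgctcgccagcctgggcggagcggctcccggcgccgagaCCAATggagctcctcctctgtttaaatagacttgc
Cdk1 and E2f3 held all 3 kinds of letters, Cdc25a held E2F and CCAAT letters, and Mki67 held CHR and CCAAT letters. Cdkn1b held CCAAT as well.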

How the data were processed

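Total RNA of 3 F121-9 libraries was analysed, on mm10 with GENCODE M21 per the file headers and the notes deposited with the libraries. Per the file headers, the deposited expected counts are raw estimates for each gene or transcript. The TPM values deposited by the authors were scaled to a common sum per library. Gene tables and 1 set of transcript tables are laid out as RSEM writes them and the other set as kallisto does; the sources used here name neither the quantifiers and their versions nor the strand setting. Totals were 9765384 to 10610782 counts per library (17717726 to 19156106 in the kallisto-style tables). Rows that name no gene, spike-ins included, took 1.75% to 1.97% of counts and entered neither library sizes nor tests.

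Expected counts were rounded to whole numbers. In R 4.3.3, edgeR 4.0.16 fitted a quasi-likelihood model with an intercept alone after filterByExpr and TMM, and each gene's dispersion was tested against the trend (F distribution, Benjamini-Hochberg, 0.05). A chi-square test against Poisson error with 2 degrees of freedom used the same genes. Transcript tables were compared with limma 3.58.1 on log2(TPM + 1) differences within libraries, a scale that understates changes of low transcripts. All adjustments ran over all genes or transcripts tested. DESeq2 1.42.0 size factors, other filters, scalings, pseudocounts, thresholds and left-out libraries were tried as alternatives. The scripts were tested on simulated data. Levels, shares and promoter searches used Python 3.11.15, numpy 2.4.6, pandas 2.3.3 and scipy 1.17.1, with no test.

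All 35 members are named, as are the highest and lowest gene of each further list and every member transcript called. The members and lists were chosen with earlier results of these data known.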

Additional observations from a re-analysis of the deposited data

How the results depend on the processing

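The count of expressed members stayed between 27 and 33 (32 as reported) and that of members with the same leading transcript between 27 and 29 (28 as reported) under every alternative run. Variable genes, 5 as reported, numbered 2 with ERCC scaling, 16 with kallisto-style counts, 8 with limma-voom, 34 with no filter on low counts and 7 to 14 with a library left out; members among them were 0 in each. Genes beyond counting noise, 1656 as reported, numbered 2800 with kallisto-style counts and 27 to 1471 with a library left out, and members among them, 8 as reported, 0 to 7. The cause was not tested. Transcripts differing between tables, 5450 as reported, numbered 17807 with no minimum difference, and member transcripts, 9 as reported, 50 with no minimum difference and 5 when a TPM above 0 in any library sufficed. With kallisto-style TPM the share of Cdk4 was 66.9%, of Cdkn1a 98.9% and of Rbl1 61.6%. Single member levels moved beyond 1 SD in 29 of 35 with kallisto-style TPM and in 12 of 35 over protein-coding transcripts, a scale chosen after seeing the data. No paired analysis was possible because there is no second group to pair with; only the 2 sets of transcript tables were compared within libraries. Cdkn2a, Ccnd2 and Cdkn1b rest on the fewest counts in the RSEM-style tables and had the lowest ratios of RSEM-style to kallisto-style counts. With 3 libraries no single library could be tested as an outlier.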
